A study of Mus musculus with 4 samples.

Results

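The interleukin-6 family of cytokines was followed here through 10 genes in mouse embryonic fibroblasts (MEFs): the ligand genes Il6, Lif and Il11, the shared receptor subunit gene Il6st, the ligand-specific receptor genes Il6ra, Lifr, Osmr and Il11ra1, the transcription factor gene Stat3 and the feedback inhibitor gene Socs3. The members were taken by name from the named genes of the deposited table, and where a gene had several transcript entries the entry with the highest mean level was used. All 10 were found among 16612 named genes. The 4 libraries came from Mll1+/+ MEFs (wild type) and from MEFs labelled Mll1-/-, and each genotype received either control solution or TNFa (TNF, 10 ng/ml) over 4 hr in DMEM with serum. That dose is the one in the design text, and the treatment protocol writes its unit differently. The Mll1 protein, whose gene is also called Kmt2a, is an enzyme that methylates histone H3 at lysine 4. Cells of 3 separate treatments were pooled into each library, so each group is 1 library, no spread between replicates exists, and no difference below has a replicate check or a p-value. The labels do not say how the mutant cells were derived or how many embryos or clones either genotype stands for.

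Members of this family signal through a common subunit, gp130, which Il6st encodes. Interleukin-6 first binds its own receptor Il6ra and interleukin-11 binds Il11ra1, whereas leukaemia inhibitory factor (Lif) joins gp130 to Lifr and mouse oncostatin M joins it to Osmr. The assembled receptor activates Janus kinases and Stat3, and Stat3 induces Socs3, whose product binds gp130 and shuts the kinases off. Fibroblasts are a known source of Il6 and Lif in inflamed tissue, and NF-kB, the pathway that TNF activates, is a known inducer of both.

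Library totals recovered from the values ran from 19306506 to 27977248 reads. Kmt2a itself stood at 1.85 RPKM (reads per kilobase of transcript, scaled to library size) in wild-type cells under control solution and 2.11 under TNF, and at 2.02 and 1.66 RPKM in the libraries labelled Mll1-/-. The level of the whole transcript therefore does not set the libraries labelled Mll1-/- apart, and it cannot show whether a part of the gene is missing. The label MEF was checked against 9 fibroblast markers, of which 7 had an entry and Lum and Thy1 had none. Of the 7, 4 reached 1 RPKM in the wild-type libraries and 7 in those labelled Mll1-/-. Every entry was above 0 in at least 1 library, so whether genes without an entry had no reads cannot be told. Vim stood between 2097 and 2418 RPKM in all 4 libraries, whereas Dcn was listed at 0 in both wild-type libraries and at 9.16 and 15.2 RPKM in the others. The summed level of the fibroblast markers was 2574 and 2356 RPKM in wild type, against 2782 and 2625 RPKM in the others, and most of it was Vim. The 6 markers other than Vim summed to 156.5 and 132 RPKM in wild type and to 605 and 528 RPKM in the others. Among them the collagen gene Col1a1 stood at 105 and 92.5 RPKM in wild type and at 337 and 295 RPKM in the others, and Col3a1 at 0.532 and 0.296, then 28.1 and 23.5 RPKM. Of 8 leukocyte markers 5 had an entry, not Ptprc, Adgre1 or Cd68, and only Cd14 reached 1 RPKM. The summed levels were 23.5 and 25.8 RPKM in wild type and 9.62 and 12.2 RPKM in the others. Endothelial markers, and the epithelial markers with an entry (Epcam had none), summed to less than 1 RPKM in every library. The 4 smooth muscle markers summed to 101 and 89.9 RPKM in wild type and to 183 and 194 RPKM in the others, of which Acta2 made up 97.96 and 87.4, then 177 and 189 RPKM. The part that these differences in marker levels have in the genotype comparisons below was not tested, and in such bulk libraries fewer cells of a type and less RNA per cell cannot be told apart.

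The promoters of Il6, Lif and Socs3 are shown because Il6 and Lif are the ligand genes that were higher with TNF and Socs3 is a well known direct target of Stat3. Each stretch is the 250 bases before the annotated start of transcription in the RefSeq promoter table for GRCm38.p6, read 5′ to 3′ on the gene's own strand. Capitals mark matches, on either strand, to the kappa B consensus bound by NF-kB, to the AP-1 site TGANTCA, to the C/EBP site TTNNGCAA or to the Stat site TTCNNNGAA. No source used here names the build of the deposited values, so these coordinates belong to the sequences alone.
Il6, chr5:30012864-30013113, plus strand: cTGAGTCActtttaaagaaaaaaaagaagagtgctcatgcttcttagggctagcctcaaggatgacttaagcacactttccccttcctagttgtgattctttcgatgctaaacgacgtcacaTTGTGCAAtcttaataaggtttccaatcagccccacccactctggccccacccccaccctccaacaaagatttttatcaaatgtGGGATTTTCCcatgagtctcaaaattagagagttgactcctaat
Lif, chr11:4257318-4257567, plus strand: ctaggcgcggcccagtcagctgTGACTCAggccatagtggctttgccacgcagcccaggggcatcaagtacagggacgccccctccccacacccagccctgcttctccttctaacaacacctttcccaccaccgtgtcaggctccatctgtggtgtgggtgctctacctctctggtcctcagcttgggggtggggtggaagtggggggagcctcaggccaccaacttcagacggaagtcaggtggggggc
Socs3, chr11:117969367-117969616, minus strand: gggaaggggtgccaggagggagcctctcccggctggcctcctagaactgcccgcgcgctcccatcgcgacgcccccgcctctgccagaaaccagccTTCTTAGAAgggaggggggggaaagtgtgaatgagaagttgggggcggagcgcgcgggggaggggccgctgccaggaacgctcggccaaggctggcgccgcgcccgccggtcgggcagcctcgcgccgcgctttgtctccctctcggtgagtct

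The Il6 stretch held 3 of these matches: GGGATTTTCC, which begins 44 bases before the start, TTGTGCAA, which begins 128 bases before it, and TGAGTCA at 249 bases. The Lif stretch held the AP-1 match TGACTCA 228 bases before the start, and the Socs3 stretch held the Stat match TTCTTAGAA 154 bases before it. All 10 members had at least 1 promoter in the table, with 13 windows in all because Il11, Il11ra1 and Lifr have a second start. The kappa B and C/EBP matches occurred in 1 window each, that of Il6. The AP-1 match occurred in 3 windows, 1 for each of the ligand genes, and the Stat match in 1, that of Socs3. No match overlapped another, and the TATA box letters TATAAA, also searched, occurred in 0 of the 13 windows. Over all 32851 windows of the same length in the table, 3.9% held a kappa B match, 6.75% an AP-1 match, 9.56% a C/EBP match, 7.02% a Stat match and 12.4% the TATA box letters. These are matches of letters in a short window, and no match in a window says only that those letters are not in it.

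In every library Il6st was the most abundant member on the RPKM scale, followed by Osmr, Stat3 and Lifr, and Il11 was the least abundant. In the wild-type control the order then ran Socs3, Il11ra1, Lif, Il6ra, Il6 and Il11. With TNF in wild type, Lif moved to the fifth and Il6 to the sixth place. Neighbours in this order whose exact Poisson counting intervals (95%) overlapped were Il6ra and Il6 in the wild-type control, Il6 and Socs3 in wild type with TNF, and Il11ra1 with Socs3 and Il6ra with Lif in the control labelled Mll1-/-. In the TNF library labelled Mll1-/- 4 such pairs overlapped: Osmr with Stat3, Lifr with Lif, Lif with Il11ra1, and Il6ra with Il6. Transcripts of the shared subunit exceeded those of each specific receptor in all libraries. Il6st stood at between 12.9 and 31.2 times the RPKM of Il6ra and at between 2.11 and 3.22 times that of Osmr.

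**Figure D1:**
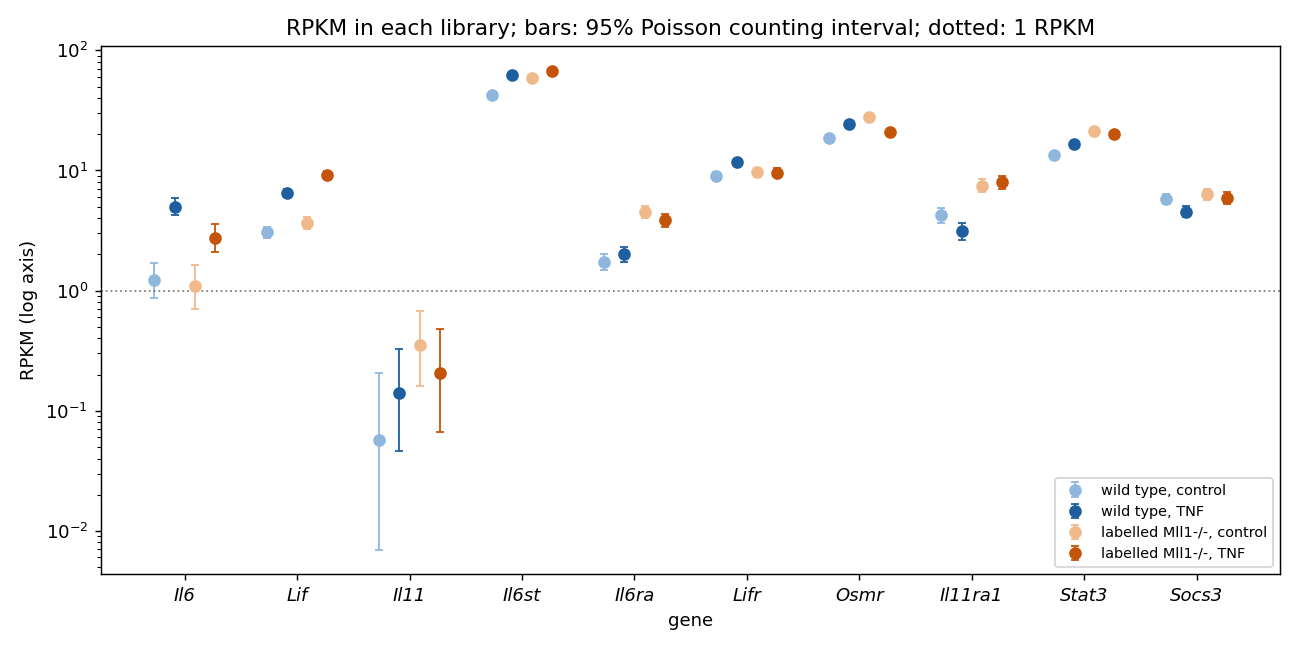
RPKM of the 10 genes (log axis) in the 4 libraries, 1 point per library, with exact Poisson 95% counting intervals as bars and a dotted line at 1 RPKM. Il6st lies between 42.2 and 67.1 RPKM, Il6 and Lif are higher in both TNF libraries than in their controls, and Il11 stays below 1 RPKM in all 4.

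Among the ligands, Il6, which encodes a fever and acute-phase cytokine, stood at 1.23 RPKM in the wild-type control, 4.998 in wild type with TNF, 1.10 in the control labelled Mll1-/- and 2.76 in the TNF library labelled Mll1-/-. These values rest on 37, 152, 24 and 58 reads. Both TNF libraries were above both controls, and the wild-type TNF library was the highest. The ratio of reads with TNF to reads in the control, scaled to the library totals, was 4.07 in wild type (95% exact binomial counting interval 2.83 to 6.001) and 2.51 in the libraries labelled Mll1-/- (1.54 to 4.23). These counting intervals, like all below, cover counting error only. On the scale of log2(RPKM + 0.5), used for all comparisons across genes, the differences were 1.67 and 1.03, which placed Il6 at rank 22 from the top in wild type and 91 in the libraries labelled Mll1-/- among 14386 genes and unnamed transcripts. With a trend of the ratio with transcript length removed, the value in the libraries labelled Mll1-/- was 0.85. The gain in level was 3.77 RPKM in wild type and 1.66 RPKM in the others.

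Lif, whose product acts on stem cells, muscle and inflamed tissue, stood at 3.05 RPKM in the wild-type control, 6.51 with TNF, 3.67 in the control labelled Mll1-/- and 9.25 with TNF in those cells. Here the TNF library labelled Mll1-/- was the highest, and again both TNF libraries lay above both controls. The read ratio was 2.14 in wild type (counting interval 1.87 to 2.45) and 2.52 in the libraries labelled Mll1-/- (2.19 to 2.91), and the gains were 3.46 and 5.57 RPKM. A second Lif entry of 4015 bases gave log2 ratios of 0.98 and 1.23, against 0.98 and 1.22 for the entry of 3798 bases used here. Both Il6 and Lif were higher with TNF in each genotype, and the higher of the 2 TNF levels was in wild type for Il6 and in the libraries labelled Mll1-/- for Lif. Il11, which encodes a cytokine of bone and fibrosis, had 2 and 5 reads in wild type and 9 and 5 reads in the others, from 0.0569 to 0.354 RPKM. It was under the filter of 1 RPKM in at least 1 library, and no TNF response was detectable at this depth, since both counting intervals of the ratio (0.406 to 26.0 and 0.152 to 1.92) included 1.

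The shared subunit gene Il6st stood at 42.2 RPKM in the wild-type control, 62.4 with TNF, 58.3 in the control labelled Mll1-/- and 67.1 with TNF in those cells. The wild-type control was the lowest library, and the TNF library was above the control in each genotype. The read ratio was 1.48 in wild type (counting interval 1.43 to 1.53) and 1.15 in the others (1.11 to 1.19), so the gain in level was 20.3 RPKM in wild type and 8.79 RPKM in the others. On the log2 scale the responses were 0.56 and 0.20, and the latter was 0.35 with the length trend removed.

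Of the ligand-specific receptor genes, Osmr, the oncostatin M receptor gene, differed most with TNF between the genotypes. It stood at 18.7 RPKM in the wild-type control, 24.5 in wild type with TNF, and at 27.7 RPKM in the control labelled Mll1-/- and 20.8 with TNF in those cells. The TNF library was the higher in wild type and the lower in the others. The read ratios were 1.31 (counting interval 1.24 to 1.38) and 0.753 (0.710 to 0.798), or 0.38 and -0.40 on the log2 scale, and with the length trend removed the latter was -0.27. Lifr, the receptor gene for Lif, stood at 9.07 and 11.7 RPKM in wild type and at 9.72 and 9.62 RPKM in the others. Its wild-type TNF library was the highest, and the remaining 3 libraries lay close together below it. The read ratio was 1.29 in wild type (1.17 to 1.43) and 0.990 in the others (0.877 to 1.12). The longer Lifr entry of 9663 bases gave log2 ratios of 0.46 and -0.04, against 0.35 and -0.01 for the entry of 2844 bases used here.

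Il6ra, which gives cells direct access to interleukin-6, was low in wild type, at 1.74 RPKM without and 1.999 with TNF, and higher in the libraries labelled Mll1-/-, at 4.53 and 3.87 RPKM. The genotypes did not overlap. How many of all genes separate the genotypes in this way was not counted, here or for Il11ra1 and Stat3 below. A higher level in the libraries labelled Mll1-/- was common. Its counting interval lay above 1 for 33.5% of all genes without TNF and for 30.7% with it. So the separation is not read as a trait of these 3 genes. The Il6ra read ratio with TNF had a counting interval that included 1 in wild type (0.927 to 1.43) and in the others (0.721 to 1.01). Il11ra1, the interleukin-11 receptor gene, stood at 4.24 RPKM in the wild-type control, 3.13 in wild type with TNF, and at 7.465 and 8.0003 RPKM in the others, again without overlap between the genotypes. Its read ratio with TNF was 0.737 in wild type (0.595 to 0.913) and 1.07 in the others (0.901 to 1.27). Il11ra2, a near-identical copy of the gene, had 151, 98, 176 and 176 reads in the same order of libraries. Reads could be split or shared between the copies, so the level of Il11ra1 is uncertain.

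Stat3, the transcription factor that the receptors activate, stood at 13.4 RPKM in the wild-type control, 16.6 in wild type with TNF, and at 21.4 and 20.1 RPKM in the libraries labelled Mll1-/-. Both of the latter were above both wild-type libraries. The read ratio with TNF was 1.24 in wild type (counting interval 1.16 to 1.32) and 0.942 in the others (0.882 to 1.01), and the latter turned direction, to a log2 ratio of 0.03, with the length trend removed. Socs3, the feedback inhibitor gene, stood at 5.84 RPKM in the wild-type control, 4.55 in wild type with TNF, and at 6.34 and 5.89 RPKM in the others. The wild-type TNF library was the lowest of the 4, while Il6, Lif and Stat3 transcripts were higher in it than in its control. The Socs3 read ratio was 0.779 in wild type (0.675 to 0.898) and 0.930 in the others (0.796 to 1.09).

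Counted over the 9 members that passed the filter, 1 was higher with TNF in wild type by 1 or more on the log2 scale (the size rule), namely Il6, against 0.521% of all 14386 genes and unnamed transcripts, and 0 were lower, against 0.0556%. In the libraries labelled Mll1-/- 2 were higher, Lif and Il6, against 0.688%, and 0 were lower, against 0.16%. Lif lay at 0.98 in wild type and so just outside the rule, and Il6 at 1.03 in the others just inside it. The counting interval excluded 1 upward for 6 members in wild type (Il6, Lif, Il6st, Lifr, Osmr and Stat3), against 15.6% of all genes, and downward for 2 (Il11ra1 and Socs3), against 19.5%. In the libraries labelled Mll1-/- it did so upward for 3 (Il6, Lif and Il6st), against 26.3%, and downward for 1 (Osmr), against 22.0%. The median log2 ratio of the 9 was 0.35 in wild type and -0.01 in the others, where the medians of all genes were -0.02 and 0.02. The TNF ratio had opposite signs in the genotypes for 5 of the 9 (Il6ra, Lifr, Osmr, Il11ra1 and Stat3), against 52.1% of all genes, a share near the background. Both counting intervals excluded 1 on opposite sides for 1 of the 9, Osmr, against 11.7%.

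**Figure D2:**
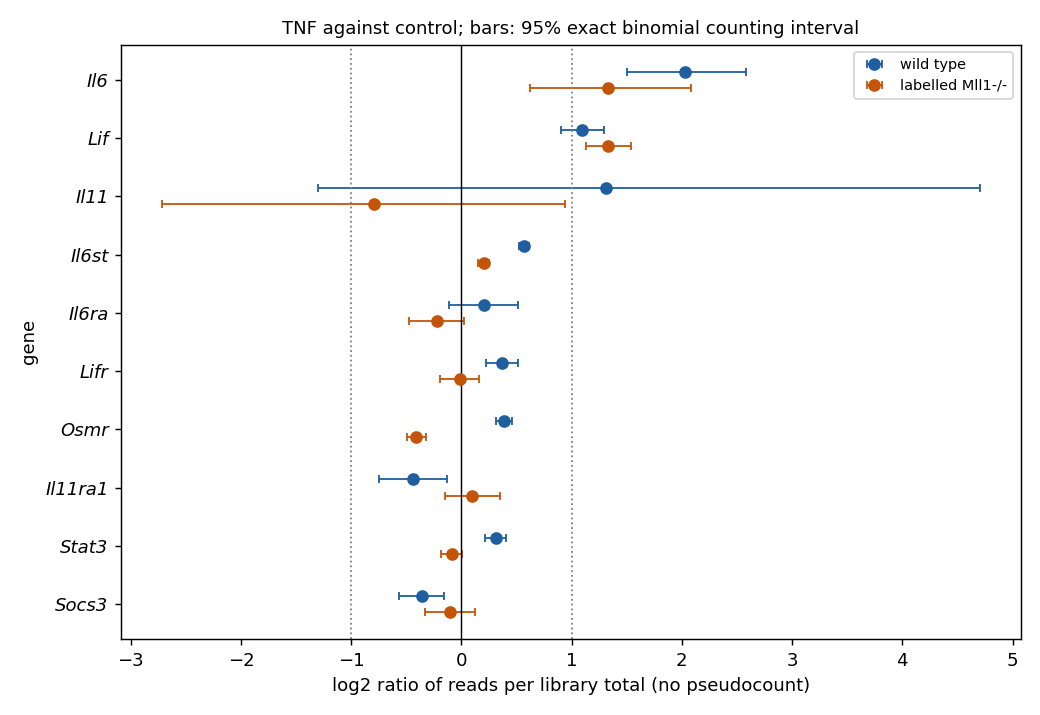
Log2 ratio of reads per library total, TNF against control, for the 10 genes in wild type (blue) and in the libraries labelled Mll1-/- (orange), with 95% exact binomial counting intervals as bars and dotted lines at -1 and 1. Il6 and Lif lie above 0 in both genotypes, and the Osmr points lie on opposite sides of 0 at 0.39 and -0.41.

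The difference between the genotypes' TNF responses, in log2 units as Mll1-/- minus wild type, was below 0 for the shared subunit, for 3 of 4 specific receptors and for Stat3. From reads it was -0.80 for Osmr (interval -0.91 to -0.68), -0.43 for Il6ra (-0.82 to -0.04), -0.40 for Stat3 (-0.53 to -0.27), -0.38 for Lifr (-0.61 to -0.16) and -0.36 for Il6st (-0.43 to -0.30), with normal 95% intervals for counting error. Il11ra1 was the 1 member with an interval above 0, at 0.54 (0.15 to 0.93). For Il6 the difference was -0.70 (-1.56 to 0.16), for Lif 0.24 (-0.04 to 0.51) and for Socs3 0.26 (-0.04 to 0.55), so that for these 3 genes equal responses lay within counting error. Of the 9 members, 5 had an interval below 0, against 19.8% of all genes, and 1 above it, against 25.0%. None of the 9 was past the size rule in this difference on the log2(RPKM + 0.5) scale, where 0.424% of all genes were lower and 0.758% higher. At -0.78 Osmr held rank 130 from the lowest of the 14386, and Il6, at -0.64, rank 239. Transcript length moved with this difference: the median over all genes went from 0.33 in the shortest to -0.23 in the longest of equal-sized length classes. With that trend removed the values on the RPKM scale went from -0.78 to -0.64 for Osmr, from -0.36 to -0.20 for Il6st, from -0.39 to -0.27 for Stat3, from -0.36 to -0.32 for Il6ra and from -0.64 to -0.86 for Il6, and Lifr stayed within 0.01 of -0.37. Il11ra1 went from 0.48 to 0.35, and to 0.30 with scaling without the 20 most abundant genes. That scaling moved the median of all genes by -0.17. It took Osmr to -0.96, Il6 to -0.75, Stat3 to -0.57, Il6st and Lifr to -0.55 and Il6ra to -0.53. Lif came to 0.08 and Socs3 to 0.05.

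Without TNF, 3 of 4 specific receptor genes, Il6st, Stat3 and Lif were higher in the library labelled Mll1-/- than in wild type beyond counting error. Relative to wild type, the read ratio was 2.61 for Il6ra (counting interval 2.15 to 3.18), 1.76 for Il11ra1 (1.46 to 2.12), 1.59 for Stat3 (1.49 to 1.70), 1.48 for Osmr (1.40 to 1.56), 1.38 for Il6st (1.34 to 1.43) and 1.204 for Lif (1.02 to 1.42). The interval included 1 for Lifr (0.958 to 1.199), Socs3 (0.941 to 1.25) and Il6 (0.513 to 1.54). Transcript length moved with this comparison too: the median over all genes went from -0.53 in the shortest to 0.26 in the longest length class. With that trend removed the log2 ratio went from 0.46 to 0.28 for Il6st and from 0.55 to 0.39 for Osmr. It went from 0.65 to 0.52 for Stat3, from 0.23 to 0.15 for Lif and from 1.17 to 1.12 for Il6ra. Il11ra1 went the other way, from 0.75 to 0.92. The direction of Il6, at a log2 ratio of -0.11, turned to 0.20 with the length trend removed and to 0.10 with the sums of RPKM made equal after the 20 most abundant genes were left out. Of the 9 members 1, Il6ra, was higher past the size rule, against 7.11% of all genes, and 0 were lower, against 7.99%. The interval lay above 1 for 6 members, against 33.5%, and below 1 for 0, against 42.4%. The median log2 ratio of the 9 members was 0.46, where that of all genes was -0.07. Il11, under the filter, had 9 reads in the library labelled Mll1-/- against 2 in wild type, a ratio of 6.21 with a counting interval of 1.29 to 59.1.

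Under TNF the order of the genotypes was the opposite of that in the controls for Osmr, with both counting intervals excluding 1. How many of all genes show such a reversal was not counted, so whether it is uncommon is not known here. The related share, of TNF ratios on opposite sides of 1 with both intervals excluding 1, was 11.7% of all genes. Il6 was lower in the library labelled Mll1-/- than in wild type, at a read ratio of 0.553 (counting interval 0.401 to 0.753), as were Lifr at 0.821 (0.736 to 0.914) and Osmr at 0.851 (0.804 to 0.900). Il11ra1 was higher at 2.56 (2.09 to 3.14), Il6ra at 1.94 (1.60 to 2.35), Lif at 1.42 (1.28 to 1.58), Socs3 at 1.30 (1.11 to 1.51), Stat3 at 1.21 (1.13 to 1.29) and Il6st at 1.08 (1.04 to 1.11). Of the 9 members 1, Il11ra1, was higher past the size rule, against 6.71% of all genes, and 0 were lower, against 4.5%. The interval lay above 1 for 6, against 30.7%, and below 1 for 3, against 38.6%. The genotype comparison without TNF and the TNF comparisons share libraries, so these values are not separate evidence for the differences in response given above.

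**Figure D3:**
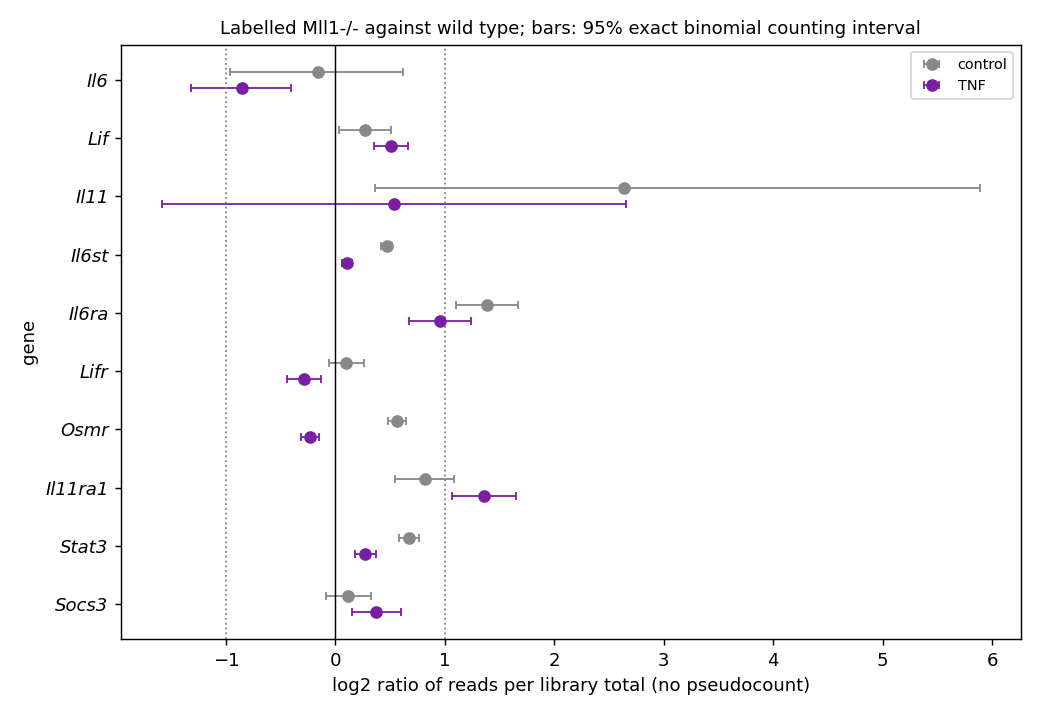
Log2 ratio of reads per library total, libraries labelled Mll1-/- against wild type, for the 10 genes in control solution (grey) and with TNF (purple), with 95% exact binomial counting intervals as bars and dotted lines at -1 and 1. Il6ra and Il11ra1 lie farthest above 0 among the 9 tested members, Osmr moves from 0.56 to -0.23, and Il11 has the widest bars.

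Other genes of the pathway were described by lists taken from general knowledge. Of 13 further ligands and receptors of the family, 9 had an entry and 4 passed the filter, and 0 were past the size rule with TNF in wild type or in the others. Osm, the oncostatin M gene, had no entry, nor did Ctf2, Il27 and Il31. Cntfr, the Cntf receptor gene, was under the filter, with 30 and 23 reads in wild type and 0 and 1 in the others. Clcf1, a ligand of the Cntf receptor, stood at 13.5 and 10.4 RPKM in wild type and at 6.51 and 8.55 RPKM in the others, and its log2 TNF ratios were -0.36 and 0.37. The counting interval of the latter's read ratio was 1.01 to 1.71, and with the length trend removed its log2 ratio was 0.15. Cntf, another ligand of the Cntf receptor, ran from 1.26 to 1.89 RPKM. Il11ra2 was the 1 gene of this list past the size rule in a genotype comparison, at 1.31 against 3.40 RPKM under TNF. Since reads could be shared with Il11ra1, the Il11ra1 and Il11ra2 values may not be separate results.

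Among 9 measured Janus kinase and other Stat genes no TNF ratio passed the size rule in wild type (median 0.07) or in the others (median -0.03). Between the genotypes Stat6, the interleukin-4 response factor, was lower in the libraries labelled Mll1-/- without TNF (15.4 against 32.05 RPKM) and with it (15.7 against 33.6 RPKM), and Jak2 was lower with TNF (25.3 against 53.2 RPKM). Jak1, the main kinase of gp130, stood at 41.7 and 42.4 RPKM in wild type and at 29.0 and 25.9 RPKM in the others. The median genotype difference of the list was -0.28 without and -0.42 with TNF, and that of the 9 members was 0.46 and 0.27. The medians of all genes were -0.07 and -0.05. Likewise 0 of 15 tested negative regulators passed the size rule with TNF in wild type or in the others, and the 2 most abundant, the phosphatase gene Ptpn11 and Socs5, had log2 ratios of 0.08 and 0.00 in wild type and of -0.19 and -0.09 in the others. Socs2, which restrains growth hormone signalling, was higher in the libraries labelled Mll1-/- (29.5 and 27.7 RPKM against 7.18 and 7.07), and the phosphatase gene Ptpn6 was lower (2.18 and 1.85 RPKM against 6.36 and 5.64). Socs1, which blocks the kinases as Socs3 does, stayed between 2.61 and 3.49 RPKM. Among 4 genes for the proteases that release soluble Il6ra and their partners, none was past the size rule. Adam10 ran from 28.5 to 44.7 RPKM and Adam17 from 21.1 to 29.5 RPKM, and Rhbdf2, a partner of Adam17, had log2 TNF ratios of 0.20 in wild type and 0.78 in the others.

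Of 20 tested genes known to be induced through Stat3, 4 passed the size rule upward with TNF in wild type and 3 in the libraries labelled Mll1-/-, and 0 were lower in either. Over all genes the shares higher were 0.521% and 0.688%. The list's medians were 0.10 and 0.27, where those of all genes were -0.02 and 0.02. The length trend was not removed from the medians of this and the other lists. For TNF in the libraries labelled Mll1-/- the median of all genes went from 0.32 in the shortest to -0.20 in the longest length class. The 4 in wild type were the acute-phase gene Saa3, the iron-binding defence gene Lcn2, the NF-kB cofactor gene Bcl3 and the transcription factor gene Cebpd, and the 3 in the others were Saa3, Lcn2 and Bcl3. These genes are also known targets of NF-kB. Saa3 stood at 0.136 and 4.64 RPKM in wild type and was listed at 0 and at 2.63 RPKM in the others, and Lcn2 stood at 1.99 and 18.1, then 2.04 and 7.41 RPKM. Bcl3 stood at 1.04 and 3.60 RPKM in wild type and at 1.76 and 4.21 RPKM in the others, and Cebpd at 1.66 and 4.10, then 6.08 and 11.3 RPKM. The 2 most abundant of the list, the cell cycle gene Ccnd1 and the survival gene Birc5, had log2 TNF ratios of -0.06 and -0.06 in wild type and of -0.11 and 0.22 in the others. Between the genotypes Cebpd and the pluripotency factor gene Klf4 (24.6 against 8.02 RPKM without TNF) were higher in the libraries labelled Mll1-/- and Nnmt was lower (3.13 against 30.5 RPKM). With TNF, Lbp (1.17 against 0.156 RPKM) was also higher, and Lcn2 and the survival gene Bcl2l1 (29.9 against 60.6 RPKM) were also lower.

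The last list held factors that act on Il6 transcription or on Il6 mRNA. Of 17 tested, 4 were past the size rule in wild type (Nfkbia, Nfkbiz, Zc3h12a and Cebpd) and 1 in the others (Nfkbia), and 0 were lower in either, again against 0.521% and 0.688% of all genes higher. The medians were 0.42 and 0.43, where those of all genes were -0.02 and 0.02. Nfkbiz, whose product is a nuclear cofactor needed for Il6 transcription, stood at 2.27 and 6.14 RPKM in wild type and at 2.23 and 4.34 RPKM in the others. Zc3h12a, which encodes an RNase that degrades Il6 mRNA, stood at 6.03 and 15.01 RPKM in wild type and at 3.16 and 6.56 RPKM in the others. The 2 most abundant of this list, the AP-1 subunit gene Fosl1 and the mRNA decay gene Zfp36l2, had log2 TNF ratios of 0.36 and 0.01 in wild type and of 0.45 and 0.04 in the others. Under TNF Zc3h12a was lower in the library labelled Mll1-/- by the size rule (log2 -1.14). For the difference in TNF response 0 of the 17 had a counting interval above 0, against 25.0% of all genes, and 7 had one below it, against 19.8%. Among the 7 were Nfkbia (-0.69) and Zfp36l1 (-0.58). Lcn2, at -1.26, was the only gene of the 6 lists past the size rule in that difference.

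**Figure D4:**
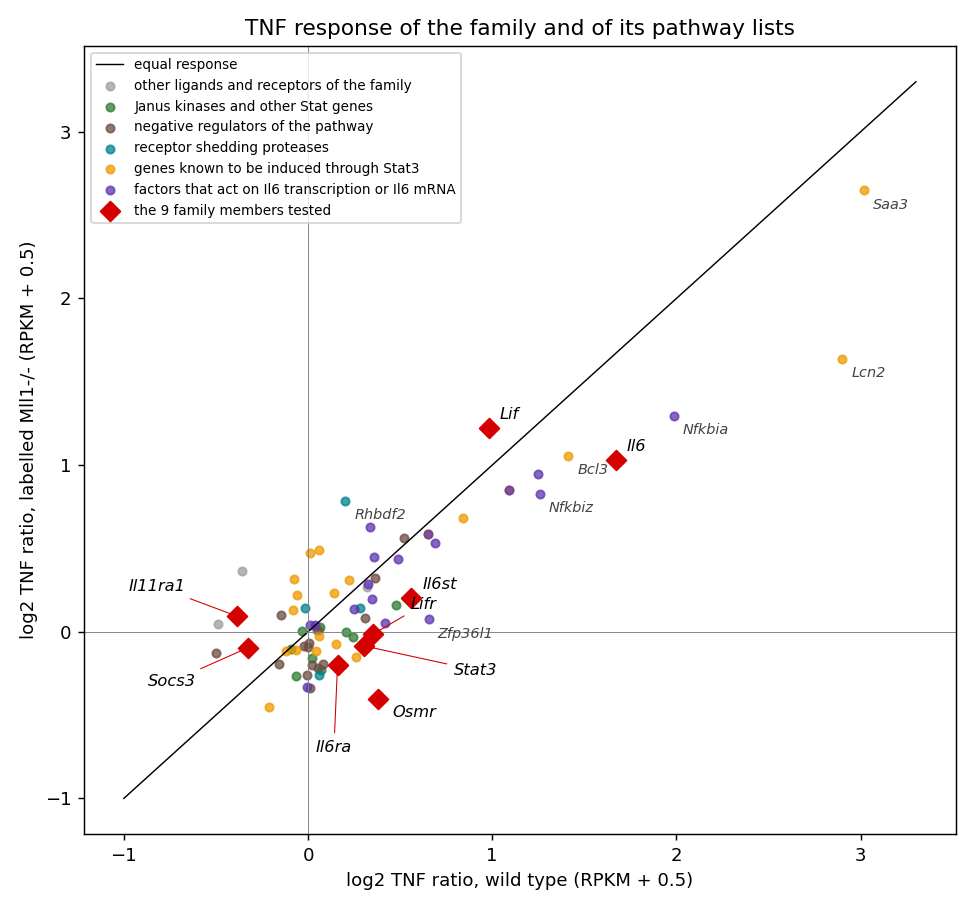
Log2 TNF ratio, on the scale of RPKM + 0.5, in wild type (x axis) and in the libraries labelled Mll1-/- (y axis) for the 9 tested family members (red diamonds) and the tested genes of the 6 pathway lists (circles), with the line of equal response. Il6 lies below the line at 1.67 and 1.03, Lif above it at 0.98 and 1.22, and Osmr in the quadrant of opposite directions at 0.38 and -0.40.

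For the 4 members whose log2 level spanned 1 or more over the libraries, the most alike genes were sought by the Euclidean distance of the centred log2(RPKM + 0.5) over the 4 libraries. The pool held 9576 named genes, and distances over 4 libraries are descriptions only. Nearest to Il6 were Nfkbiz (distance 0.38), the NF-kB inhibitor gene Tnfaip3 (0.43) and AF357399 (0.48). Nearest to Lif were Plscr1 (0.26), Rnu1a1 (0.27) and Bcl3 (0.33). Il6ra was nearest to Pakap, Tifa and Lin7c (all 0.06), and Il11ra1 to Them6 (0.05), 5730416F02Rik (0.06) and 2510002D24Rik (0.12).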

How the data were processed

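RNA-seq of purified, fragmented mRNA gave 1 library per group. The authors deposited RPKM per RefSeq transcript, per the file headers. TopHat and DESeq are named in the submitters' processing notes without version or role, and no source used here names the build, annotation or counter. Entries were named from RefSeq gene tables (20849) or GENCODE (102), and 6393 stayed unnamed. The entry with the highest mean was used for each gene. Whole reads were recovered for 27344 of 27344 entries (within 0.0001 reads, beside rounding of the values). The length taken was the smallest that gave whole reads, and 581 entries were multiplied to match the GENCODE length. Of the entries with a GENCODE length, 75.9% lay within 10% of it. For the remaining entries the true reads may be a whole multiple of those recovered. Reads summed over entries were 1.63 to 1.73 times the library totals, so transcript entries share reads.

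Comparisons used log2(RPKM + 0.5), which understates changes of low genes, over the 14386 genes and unnamed entries with at least 1 RPKM in 1 library. With 1 library per group there is no test. A difference counts by size at 1 or more, and 95% exact binomial (Clopper-Pearson) intervals of read ratios cover counting error only. The length trend was a lowess curve over log transcript length (span 0.3). Calculations used Python 3.11.15, SciPy 1.17.1 and statsmodels 0.14.6, and were tested on simulated data. All members are named. Of each list up to 6 genes past the size rule per comparison and the 2 of highest mean level are named, with the 3 nearest genes of each member spanning 1 or more. Cntf, Cntfr, Socs1, Rhbdf2 and Zfp36l1 fall outside this rule and were chosen after their values were seen. The members, lists and settings were chosen with earlier results of these data known. Alternatives changed the pseudocount, filter, scaling, entry and length trend.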

Additional observations from a re-analysis of the deposited data

Results flagged for a closer look

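For 6 of the 10 genes the TNF ratio had opposite signs in the 2 genotypes. Such signs were found for 52.1% of all 14386 genes and unnamed transcripts, so 6 of 10 is near the background. The difference in log2 response (Mll1-/- minus wild type, RPKM + 0.5 scale) was -0.48 for Il11, -0.36 for Il6ra, -0.37 for Lifr, -0.78 for Osmr, 0.48 for Il11ra1 and -0.39 for Stat3. With 1 library per group these differences were not tested against replicates. Osmr was the 1 gene of the 6 whose counting intervals excluded a ratio of 1 in both genotypes. They were 1.24 to 1.38 in wild type and 0.710 to 0.798 in the libraries labelled Mll1-/-. Of the 14386, 7492 had opposite signs, and for 1687 of these both intervals excluded 1 (11.7% of the 14386). Il11 is under the filter and so is not among the 14386. In the latter libraries the log2 ratio of Lifr came to 0.00 and that of Stat3 to 0.03 with the length trend removed, and that of Il11ra1 came to -0.06 with sums made equal without the 20 most abundant genes. Il11 rests on 2 to 9 reads per library, and its difference came to -1.20 with a pseudocount of 0.1 and -2.10 with none.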

How the results depend on the processing

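Of 550 member values over 11 alternatives and 5 comparisons, 165 could not differ from the reported value, since a filter changes no ratio and most members have 1 entry. Of the other 385, 380 kept their sign. The members higher with TNF in wild type numbered 2 instead of 1 with a pseudocount of 0.1 and with none (Lif at 1.07 and 1.10). Il11, under the filter, passed 1 between the controls at these settings (1.53 and 2.64), in the difference in response (-1.20 and -2.10) and, with no pseudocount, for TNF in wild type (1.31). In the libraries labelled Mll1-/- they numbered 1 instead of 2 with a pseudocount of 1, upper-quartile scaling, scaling without the 20 most abundant genes and the length trend removed (Il6 at 0.84, 0.97, 0.92 and 0.85). Without TNF, 2 instead of 1 were higher in the library labelled Mll1-/- with scaling without the 20 most abundant genes (Il11ra1 at 1.03). The sign changed for Il6 between the controls (0.10 and 0.20) and, for TNF in the libraries labelled Mll1-/-, for Il11ra1 (-0.06), Lifr (0.00) and Stat3 (0.03). The cause was not tested. Scaling without the 20 most abundant genes moved the median of all genes by -0.15 for TNF in the libraries labelled Mll1-/- and by 0.28 between the controls. It gave 1529 genes higher and 621 lower between the controls, against 1023 and 1150. For the difference in response it gave 62 higher and 103 lower, against 109 and 61, and removing the length trend gave 35 and 149. No paired analysis was possible because each group is 1 library and the labels carry no replicate numbers, which also leaves no replicate to leave out. Depth limits Il11 and, less so, Il6.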
